A study of Mus musculus with 2 samples.

Results

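The transcription factors tied to smooth muscle identity were followed across the cells of the normal mouse thoracic aorta. The genes were *Myocd*, *Srf*, *Mef2c*, *Tead1*, *Klf4*, *Gata6*, *Foxs1*, *Tbx18*, *Prrx1* and *Tcf4*, found by their symbols, and all 10 were present among the 32287 features of the deposited matrices. Their unique molecular identifiers (UMIs, each counting 1 captured RNA molecule) were summed for each aorta and cell type, and again for each subset of smooth muscle cells (SMCs).

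The libraries came from 2 thoracic aortas of GFPiSMC mice (genotype *Myh11-CreERT2.mT/mG*, C57BL/6J background), 1 aorta per library, which form a single group labelled WT. In these mice a tamoxifen-inducible Cre is driven by the *Myh11* promoter, and recombination switches a membrane reporter from tdTomato to GFP, so that the marked lineage is that of Myh11-expressing cells. Both mice received tamoxifen at 1 mg per day for 5 days from 3 weeks of age, and aortas were taken at 12 weeks; the study used males, in which the transgene is active. Sorting took viable cells whether or not they carried GFP, so all cell types of the wall were present. No second genotype or treatment enters the comparison, which is therefore between cell types of the same 2 aortas.

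The matrices held 8947 and 6263 cells with 47009780 and 30919996 UMIs. The study states that 6278 and 4300 cells remained after its filter, while the filters applied here left 6744 and 4698, of which 205 and 84 were called doublets and removed. The 6539 and 4614 analysed cells had a median of 5671 and 5396.5 UMIs, and the aortas shared 18 cell barcodes, 10 of them among the analysed cells. Cells fell into 30 clusters named from marker genes as SMC-like, fibroblast-like, endothelial-like, mesothelial-like, myeloid-like or lymphocyte-like, written below without the suffix. These names were rebuilt from the data and may differ from those of the study. SMCs made up 34.1% and 35.2% of the cells and 40.5% and 42.3% of the UMIs, and carried 21511 and 20906 CPM (UMIs per 1000000 UMIs of the same sum) of *Acta2* and 1833 and 1657 CPM of *Cnn1*. Phospholamban (*Pln*), another of the 6 SMC markers, was low at 29.9 and 16.2 CPM. A cluster of 840 SMCs had a median of 1888 UMIs against 7612.5 for all SMCs and was kept; where its removal changed a call, this is stated.

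SMCs owe their contractile program to serum response factor (SRF), a DNA-binding protein present in many cells, and to its coactivator myocardin, which is made mainly in cardiac and smooth muscle. SRF binds a short promoter element, the CArG box, and recruits either myocardin, which directs contractile genes, or ternary complex factors, which direct immediate early genes. KLF4 opposes the myocardin program and is known for its rise when SMCs lose contractile character. GATA6, MEF2C, TEAD1, TBX18, PRRX1, FOXS1 and TCF4 are factors of wider use that also act in vascular mural or mesenchymal cells.

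The first comparison asked in which cells of the wall each factor was transcribed, and whether SMCs differed from each other type by more than the spread between aortas. Levels are given as CPM of each sum in aorta 1 and aorta 2, and are compared only within a gene. A gene was called when edgeR's quasi-likelihood test gave a p under 0.05 after Benjamini-Hochberg adjustment across the 14101 genes that entered the test, and the change exceeded 2-fold. Fold changes are log2 values after TMM scaling (a trimmed mean over genes), which places them 0.14 above the ratio of CPM values against fibroblasts, 0.25 against endothelial cells, 0.26 against mesothelial cells, 0.06 against lymphocytes and 0.0049 against myeloid cells.

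*Myocd* was the factor most confined to SMCs. It reached 68.6 and 73.8 CPM in SMCs (1143 and 863 UMIs), while fibroblasts held 4.79 and 5.95 CPM, endothelial cells 2.19 and 2.36 CPM and mesothelial cells 1.66 and 1.98 CPM. Myeloid cells held 1.17 and 0.839 CPM and lymphocytes 2.71 and 0.57 CPM, from 10 and 9 UMIs in both aortas together. SMCs lay above every other type in both aortas, with no overlap. The log2 difference was 3.89 ± 0.15 (SE) over fibroblasts (adjusted p = 1.48e-12), 5.21 ± 0.23 over endothelial cells (adjusted p = 5.96e-12) and between 5.26 and 6.07 over the remaining types, n = 2 aortas per type in the edgeR fit. With doublets kept the difference was 4.44 over endothelial cells (4.597 at a minimum of 5000 UMIs per cell), 3.84 over myeloid cells, 3.66 over mesothelial cells and 4.01 over lymphocytes, and the last was 7.02 without aorta 1 and 4.65 without aorta 2. Below SMCs, fibroblasts exceeded endothelial cells by 1.32 ± 0.36 (adjusted p = 0.00673), and no pair among endothelial, mesothelial, myeloid and lymphoid cells passed.

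Of all *Myocd* UMIs in the analysed cells, 94.1% ± 0.208 (SD, n = 2) came from SMCs, more than double the share that SMCs had of all UMIs. *Srf* followed with 60.0% ± 5.21, then *Tbx18* with 56.7% ± 2.33, *Foxs1* with 54.1% ± 7.27 and *Mef2c* with 53.8% ± 2.93. For *Tead1* (43.2% ± 2.25) and *Gata6* (41.1% ± 0.872) the share was close to that of all UMIs. The shares of *Prrx1* (24.9% ± 0.467), *Tcf4* (24.3% ± 2.26) and *Klf4* (11.8% ± 1.91) lay well below it, and fibroblasts held 73.0% of *Prrx1*, 50.3% of *Klf4* and 43.2% of *Tcf4*. *Myocd* alone was thus found almost wholly in SMCs. These shares depend on which cells are kept. At a minimum of 5000 UMIs per cell, where SMCs held 46.6% and 49.7% of all UMIs, the mean share was 50.4% for *Tead1*, 50.1% for *Gata6*, 63.4% for *Mef2c* and 62.3% for *Tbx18*, and with doublets kept it was 89.2% for *Myocd*.

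**Figure D1:**
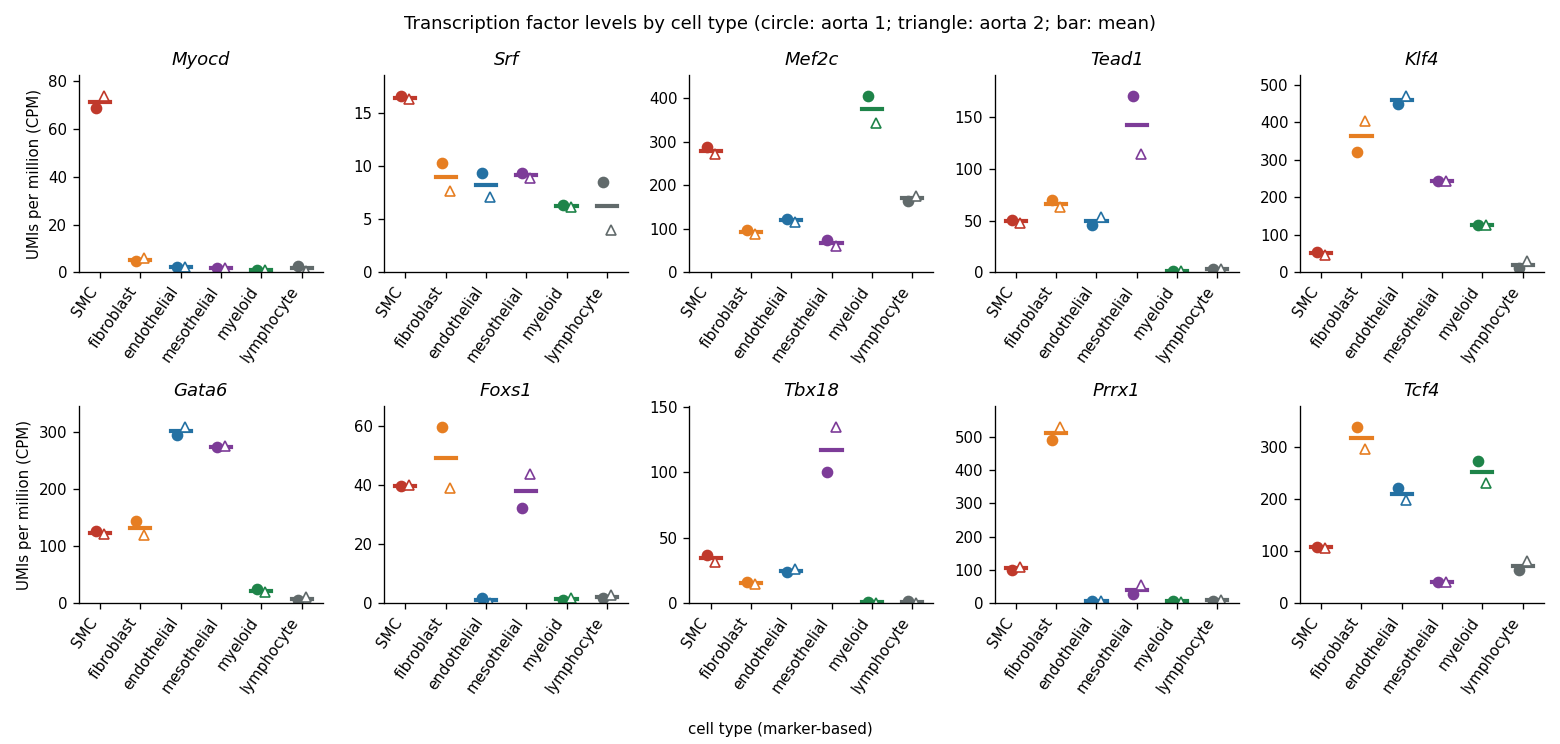
Level of each factor in each cell type, in CPM on a linear axis from 0 for each gene, with a circle for aorta 1, a triangle for aorta 2 and a bar at their mean. *Myocd* stands in SMCs at 68.6 and 73.8 CPM and under 6 CPM in every other type, while *Klf4* is higher in fibroblasts, endothelial, mesothelial and myeloid cells than in SMCs.

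The fibroblast *Myocd* was unevenly placed. Of the 90 *Myocd* UMIs in fibroblasts, 69 (76.7%) came from 2 of 6 fibroblast clusters, which held 391 of 2769 fibroblasts (14.1%). These clusters, led by *Tnfrsf11b*, *Fst* and *Fhl2* and by *Mab21l2*, *Chrm2* and *Faim2*, had 5 of the 6 SMC markers detected in more than 25% of their cells, where the other fibroblast clusters had 2 or 3. Their summed SMC markers stood at 18249 and 18687 CPM and at 6435 and 10392 CPM, against 492 to 1242 CPM in the other fibroblast clusters. *Myocd* itself stood at 26.0 and 26.6 CPM in the first and at 19.1 and 54.3 CPM in the second, against 0 to 3.59 CPM in the other fibroblast clusters. SMC markers and *Myocd* were thus both raised in these 2 clusters. Between the 2, however, the cluster with more SMC marker RNA had less *Myocd* in aorta 2. The part of SMC markers in the fibroblast level of *Myocd* was not tested.

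As a background for the low levels, SMC marker transcripts outside SMCs were measured in the same sums. The 6 markers together reached 6.49% and 6.22% of their SMC level in fibroblasts, 3.29% and 2.98% in endothelial cells and between 1.17% and 2.10% in mesothelial cells, myeloid cells and lymphocytes. Listed contractile genes that did not serve as markers together reached 11.2% and 11.5% in fibroblasts and 7.0% and 6.6% in endothelial cells. *Myocd* stood at 6.98% and 8.06% of its SMC level in fibroblasts and at 3.19% and 3.20% in endothelial cells, close to the markers and below those contractile genes. In mesothelial cells it stood at 2.42% and 2.69%, above the markers there (1.70% and 1.17%), in lymphocytes at 3.95% and 0.772% against 2.09% and 2.10%, and in myeloid cells at 1.70% and 1.14% against 2.02% and 1.44%. The counts behind these last values are 1 to 8 UMIs a sum. *Srf* was unlike them, at 61.7% and 47.1% in fibroblasts and 56.5% and 43.4% in endothelial cells.

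*Srf*, the DNA-binding partner, was present at a low level in every type. SMCs held 16.6 and 16.3 CPM (277 and 191 UMIs), fibroblasts 10.3 and 7.69 CPM, endothelial cells 9.40 and 7.09 CPM and mesothelial cells 9.40 and 8.92 CPM. Myeloid cells held 6.33 and 6.15 CPM and lymphocytes 8.48 and 3.99 CPM. SMCs were highest in both aortas without overlap, and the fitted difference over fibroblasts was 1.00 ± 0.18, which in the fit fell just short of 2-fold (adjusted p = 0.000205). With the aorta as a replicate block it was 1.01 ± 0.16 and passed (adjusted p = 2.5e-05). SMCs exceeded endothelial cells by 1.23 ± 0.24 (adjusted p = 0.000313), mesothelial cells by 1.10 ± 0.29 (adjusted p = 0.00500), myeloid cells by 1.40 and lymphocytes by 1.35 by edgeR's quasi-likelihood test. At a minimum of 5000 UMIs per cell the calls over mesothelial cells (0.89) and lymphocytes (0.99) were lost, and without aorta 1 the difference from lymphocytes was 2.09. No pair of the other types passed for *Srf*, at 7 to 105 UMIs per sum.

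*Srf* is known to act on its own promoter, and its CArG boxes are shown beside those found at contractile genes on the list. In RefSeq promoters of GRCm38.p6, the 250 bases before each start were searched on both strands for the CArG box. The pattern was CCWWWWWWGG, with W for A or T and no mismatch allowed, so looser boxes were not sought. Of 32851 promoters 482 (1.47%) held it, and 3 of the 18 promoters of the 16 contractile genes in the table did, at *Myl9*, *Vcl* and *Dmd*. It was found in 0 of 4 promoters of SMC markers and in 1 of 14 promoters of the immediate early and heat shock genes listed below. Among the 5 members in the table (*Srf*, *Klf4*, *Mef2c*, *Prrx1* and *Tbx18*) *Srf* alone held it, in 2 places. The search also covered the TEAD element MCAT (CATTCC or its reverse complement GGAATG), found in 4153 promoters (12.6%), in 7 of the 18 contractile promoters, in those of the members *Prrx1* and *Mef2c*, and in that of *Acta2*, 1 of 4 SMC markers in the table. Sequences run 5′ to 3′ on the gene's strand, capitals mark the CArG box or MCAT element, and a match describes the letters and not a bound site.
Srf, chr17:46556225-46556254, minus strand, box starting 82 bases before the start: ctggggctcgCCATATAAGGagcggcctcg
Srf, chr17:46556205-46556234, minus strand, box starting 62 bases before the start: agcggcctcgCCATAAAAGGaaacattgta
Myl9, chr2:156775293-156775322, plus strand, box starting 161 bases before the start: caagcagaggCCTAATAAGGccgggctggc
Vcl, chr14:20929161-20929190, plus strand, box starting 227 bases before the start: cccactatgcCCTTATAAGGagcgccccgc
Dmd, chrX:82948762-82948791, plus strand, box starting 98 bases before the start: catgggcagtCCTATTATGGgaaagcaact
Mef2c, chr13:83503949-83503974, plus strand, MCAT starting 75 bases before the start: tcattttttaGGAATGattttggata
Prrx1, chr1:163313815-163313840, minus strand, MCAT starting 180 bases before the start: ctactgcaagGGAATGataattagac
Acta2, chr19:34255504-34255529, minus strand, MCAT starting 146 bases before the start: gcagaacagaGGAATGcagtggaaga

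*Mef2c*, a MADS-box factor related to SRF that acts in muscle, endothelium and B cells, was shared between SMCs and leukocytes. SMCs held 288 and 271 CPM and myeloid cells 406 and 344 CPM. Lymphocytes followed with 165 and 175 CPM, endothelial cells with 123 and 116 CPM, fibroblasts with 98.1 and 87.8 CPM and mesothelial cells with 74.6 and 61.4 CPM. SMCs thus lay second, above all non-immune types. The difference was 1.73 ± 0.11 over fibroblasts (adjusted p = 5.12e-10), 1.47 over endothelial cells and 2.28 over mesothelial cells, all called, while −0.42 against myeloid cells (adjusted p = 0.00165) and 0.78 against lymphocytes were under 2-fold by edgeR's quasi-likelihood test. The difference between endothelial cells and fibroblasts did not pass (adjusted p = 0.0832 by the same edgeR test).

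The lymphocyte average of *Mef2c* hid a wide split. Its 2-aorta means over lymphocyte clusters with at least 20 cells in each aorta, the limit used for all cluster ranges given here, ran from 9.54 to 615 CPM, and the cluster led by *Igkc*, *Cd79a* and *Ms4a1*, genes of B cells, held 692 and 538 CPM. Within SMCs the cluster led by *Pln* and *Pappa2* was highest at 738 and 595 CPM, and the myeloid cluster led by *Cd209f* and *Folr2*, genes of resident macrophages, held 665 and 537 CPM. Single clusters of SMCs, lymphocytes and myeloid cells therefore had *Mef2c* at about the same level.

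*Tead1*, a DNA-binding partner of the coactivators YAP and TAZ, marked the structural cells without singling out SMCs. It was highest in mesothelial cells at 170.3 and 114 CPM, followed by fibroblasts at 69.5 and 62.7 CPM, SMCs at 50.7 and 48.1 CPM and endothelial cells at 45.7 and 53.2 CPM. Myeloid cells (1.66 and 1.68 CPM) and lymphocytes (3.39 and 2.85 CPM) had almost none. SMCs were below mesothelial cells by a log2 difference of −1.30 ± 0.14 (adjusted p = 7.46e-07 by edgeR's quasi-likelihood test) and above myeloid cells by 4.87 and lymphocytes by 4.01. With doublets kept the last pair were 3.03 and 2.95, and the lymphocyte value was 3.103 at a minimum of 5000 UMIs per cell. The differences from fibroblasts (−0.28 ± 0.12, adjusted p = 0.0711) and endothelial cells (0.26, adjusted p = 0.152) did not pass the same edgeR test. SMCs nonetheless lay below fibroblasts in both aortas, and with the aorta as a replicate block that difference was −0.28 with an adjusted p of 0.0395 by edgeR, still under 2-fold.

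*Klf4*, the factor that opposes myocardin, was lower in SMCs than in every type but lymphocytes. SMCs held 54.2 and 47.0 CPM (902 and 550 UMIs) against 448 and 471 CPM in endothelial cells. Fibroblasts followed with 321 and 404 CPM, mesothelial cells with 243 and 243 CPM and myeloid cells with 127 and 127 CPM. Lymphocytes held 11.2 and 29.6 CPM, the widest ratio between the aortas among these types. No type overlapped SMCs. SMCs fell below endothelial cells by a log2 difference of −2.92 ± 0.17 (adjusted p = 1.47e-10), fibroblasts by −2.69 ± 0.16 (adjusted p = 3.83e-10), mesothelial cells by −1.996 and myeloid cells by −1.32 (adjusted p = 2.15e-06) in edgeR's quasi-likelihood test. Over lymphocytes they rose by 1.52 ± 0.25 (adjusted p = 3.77e-05 by the edgeR test), a value that was 0.73 without aorta 1 and 2.27 without aorta 2, and that lost its call at 0.88 with doublets kept and 0.55 at a minimum of 5000 UMIs per cell. The difference between endothelial cells and fibroblasts did not pass (adjusted p = 0.229 by the edgeR test).

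*Klf4* also varied widely among fibroblast clusters. Means over fibroblast clusters ran from 88.9 to 995 CPM, with the cluster led by *Pla1a*, *Dact2* and *Aldh1a3* at 958 and 1032 CPM. Endothelial clusters ran from 440 to 639 CPM and SMC clusters from 38.0 to 216 CPM, so even the highest SMC cluster lay below every endothelial cluster. *Klf4* can respond to cell isolation as immediate early genes do, and the 16 listed immediate early and heat shock genes summed to 3080 and 2472 CPM in SMCs, above the sum of 1663 and 1410 CPM found for fibroblasts and of 1381 and 1573 CPM for the endothelium. Single genes of the list went both ways, and the part of cell isolation in the *Klf4* levels was not tested.

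*Gata6*, a zinc finger factor long associated with the contractile state of vascular SMCs, was higher in endothelial and mesothelial cells than in SMCs. Endothelial cells held 294 and 309 CPM, mesothelial cells 274 and 276 CPM, fibroblasts 145 and 120.2 CPM and SMCs 126 and 121 CPM. Myeloid cells held 24.8 and 19.6 CPM and lymphocytes 5.09 and 10.3 CPM. SMCs and fibroblasts overlapped, with a difference of 0.04 (adjusted p = 0.792 by edgeR's quasi-likelihood test) whose sign turned under several alternatives and was 0.14 without aorta 1 and −0.10 without aorta 2. SMCs were below endothelial cells by a log2 difference of −1.03 ± 0.11 (adjusted p = 7.51e-07 by the edgeR test), which was −0.99 and under 2-fold without the low-UMI SMC cluster. Against mesothelial cells the difference was −0.89 (adjusted p = 1.15e-05 by the edgeR test), under 2-fold. The difference between endothelial and mesothelial cells did not pass (adjusted p = 0.388 by the edgeR test). The endothelial cluster led by *Isl1* and *Car8* reached 340 and 369 CPM, while means over endothelial clusters ran from 41.9 to 354 CPM. An exon of *1010001N08Rik* on the opposite strand overlaps *Gata6*, and since strand use in the counting is not stated, reads of both cannot be told apart.

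*Foxs1*, a forkhead factor of mural and mesenchymal cells, was held by SMCs, fibroblasts and mesothelial cells at like levels. SMCs stood at 39.5 and 40.0 CPM, fibroblasts at 59.5 and 38.7 CPM and mesothelial cells at 32.1 and 43.6 CPM, ranges that overlapped. The difference of SMCs from fibroblasts was −0.18 ± 0.17 (adjusted p = 0.395) and from mesothelial cells 0.38 (adjusted p = 0.225) in edgeR's quasi-likelihood test, and the former was 0.17 without aorta 1 and −0.50 without aorta 2. Endothelial cells held 1.88 CPM in aorta 1, from 6 UMIs, and 0 UMIs in aorta 2, which allows up to 1.18 CPM. The fitted log2 difference of 5.47 ± 0.43 (adjusted p = 1.21e-08 by the edgeR test) was 4.72 with doublets kept, 4.61 without aorta 2 and 10.59 without aorta 1, a value set by the 0 and no bound. Myeloid cells and lymphocytes held 1.17 to 2.85 CPM. Fibroblast clusters ran from 2.35 to 105 CPM, the highest led by *Dio2* at 126 and 84.4 CPM, so the fibroblast average came from a few clusters.

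*Tbx18*, a T-box factor of epicardial, mesothelial and mural cells, was highest in mesothelial cells and next in SMCs. Mesothelial cells held 100.1 and 135 CPM, SMCs 37.0 and 31.9 CPM, endothelial cells 23.8 and 26.0 CPM and fibroblasts 16.6 and 14.4 CPM. Myeloid cells and lymphocytes held 0.559 to 1.70 CPM. No neighbours overlapped among the 4 structural types. SMCs fell below mesothelial cells by a log2 difference of −1.47 ± 0.15 (adjusted p = 4.11e-07) and rose above fibroblasts by 1.29 ± 0.15 (adjusted p = 1.36e-06), while 0.73 over endothelial cells (adjusted p = 0.00163) was under 2-fold by edgeR's quasi-likelihood test. Endothelial *Tbx18* was again tied to the *Isl1* and *Car8* cluster, at 36.5 and 39.0 CPM, with means over endothelial clusters from 0 to 37.8 CPM.

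*Prrx1*, a paired-related homeobox factor of limb and connective tissue mesenchyme, was mainly fibroblastic. Fibroblasts held 491 and 529.8 CPM, SMCs 101 and 109 CPM and mesothelial cells 28.7 and 53.5 CPM. Endothelial cells (7.20 and 5.91 CPM), myeloid cells (5.83 and 5.03 CPM) and lymphocytes (6.78 and 10.8 CPM) were low. SMCs formed a clear middle tier, below fibroblasts by a log2 difference of −2.14 ± 0.12 (adjusted p = 1.17e-10), above mesothelial cells by 1.71 (adjusted p = 4.33e-07) and above endothelial cells by 4.23 in edgeR's quasi-likelihood test. With doublets kept the endothelial value was 3.44. Fibroblast clusters ran from 223 to 736 CPM, and the SMC cluster richest in *Prrx1*, with a mean of 214 CPM, came close to the lowest of them.

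*Tcf4* encodes the E-protein E2-2, a partner of tissue-specific basic helix-loop-helix factors, and not the Wnt effector TCF7L2 that shares its older name. Fibroblasts held 339 and 296 CPM, myeloid cells 273 and 232 CPM, endothelial cells 221 and 199 CPM and SMCs 108 and 107 CPM. Lymphocytes held 63.1 and 82.0 CPM and mesothelial cells 40.9 and 40.6 CPM. SMCs were the lower middle tier, with log2 differences of −1.42 ± 0.11 from fibroblasts (adjusted p = 9.14e-09), −1.24 from myeloid cells (adjusted p = 3.45e-08) and 1.66 from mesothelial cells (adjusted p = 1.99e-07) in edgeR's quasi-likelihood test. The difference from endothelial cells, −0.72 (adjusted p = 4.72e-05 by the edgeR test), was under 2-fold. Endothelial clusters ran from 99.3 to 770 CPM, with the highest, led by *Tcf15*, *Gpihbp1* and *Car4*, at 845 and 694 CPM, and the lymphatic-like cluster led by *Ccl21a* and *Mmrn1* at 613 and 650 CPM.

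**Figure D2:**
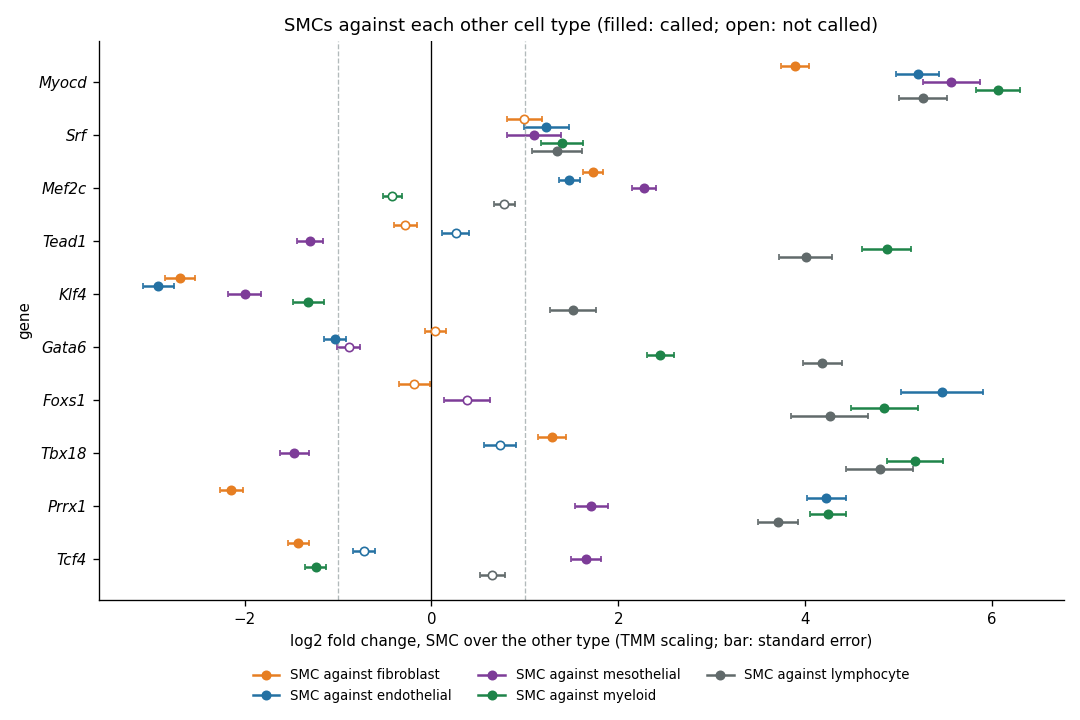
Log2 fold change of SMCs against each other cell type for the 10 factors, with error bars of 1 SE and filled symbols for calls and dashed lines at the 2-fold threshold. *Myocd* lies between 3.89 and 6.07 in all 5 comparisons, whereas *Klf4* lies below −1 in 4 of 5.

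Counted together, 3 of the 10 factors were called higher in SMCs than in fibroblasts (*Myocd*, *Mef2c* and *Tbx18*) where 10.5% of all genes tested were, and 3 lower (*Klf4*, *Prrx1* and *Tcf4*) where 14.8% were. Against endothelial cells 5 were higher (background 14.4%) and 2 lower (15.5%), and against mesothelial cells 5 were higher (13.7%) and 3 lower (15.6%). Against myeloid cells 7 were higher (23.3%) and 2 lower (20.7%), and against lymphocytes 8 were higher (27%) and 0 lower (21.1%). The counts of higher factors were thus above the share of all genes in every comparison. Those of lower factors were also above it against fibroblasts, endothelial cells and mesothelial cells, but not against myeloid cells or lymphocytes. Whether these excesses differed from each other or between comparisons was not tested. *Myocd* was the factor called higher in SMCs against all 5 types.

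**Figure D3:**
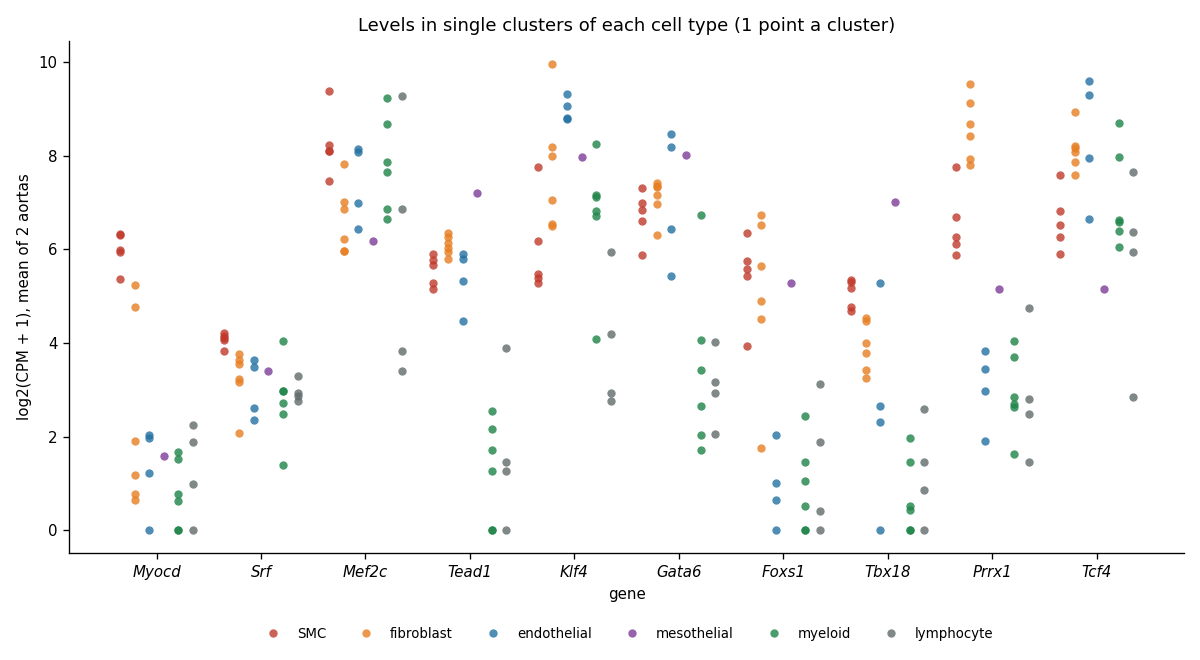
Level of each factor in every cluster with at least 20 cells in each aorta, as log2(CPM + 1) of the mean of 2 aortas, with 1 point for each cluster and colors for cell types. *Klf4* spans 88.9 to 995 CPM over fibroblast clusters and 38.0 to 216 CPM over SMC clusters, while *Srf* stays between 13.2 and 17.4 CPM over SMC clusters.

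How often a factor was seen in a single cell depended on depth. With every cell thinned to 1000 UMIs, *Myocd* was detected in 140 of 2227 SMCs of aorta 1 (6.29%, exact binomial 95% interval 5.31 to 7.38) and 99 of 1623 of aorta 2 (6.10%). Lymphocytes, the type taken as background, gave 0 of 618 cells and 1 of 359. Without thinning 33.0% and 34.2% of SMCs held a *Myocd* UMI, at a median of 7720 and 7487 UMIs per SMC against 4070 and 3872 per lymphocyte. The thinned share was 23.8% and 22.1% for *Mef2c* in SMCs, and 1.66% and 2.03% for *Srf* against 0.971% and 0.279% in lymphocytes. *Srf* detection in SMCs was above that in lymphocytes in both aortas but rested on few cells at this depth, and intervals cover counting error only.

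The second comparison asked whether the factors differed among SMCs. SMCs were clustered again with the 10 factors and all listed genes left out, and 6 subsets had at least 20 cells in each aorta. A subset of 1059 cells was led by *Hand2* and *Tnnt2* and also by the stress genes *Atf3*, *Hspa1a* and *Hspa1b*. Another of 898 cells was led by *Adamtsl1*, *Dlx6os1* and *Msx2*, another of 837 cells by *Hoxa7* together with the stress genes *Gadd45b* and *Cdkn1a*, and a small one of 125 cells by *Pln*, *Notch3* and *Gja4*. HAND2, DLX6 and MSX2 are known as factors of neural crest and pharyngeal mesenchyme, and HOXA7 is a factor of the posterior body axis. The remaining subsets held 749 and 138 cells with medians of 1757 and 1857 UMIs, low against 7388 to 10020 in the others. The *Dlx6os1*/*Msx2* subset stood apart in cell type markers. Its 6 SMC markers summed to 22510 and 24088 CPM against 43854 to 47405 CPM in the other deeper subsets, and its 6 fibroblast markers to 381 and 350.0 CPM against 119 to 209 CPM. Its 5 pericyte markers summed to 3352 and 2832 CPM against 112 to 810 CPM, most of it *Rgs5* at 2888 and 2419 CPM, with *Kcnj8* and *Abcc9* also raised, while *Vtn* and *Higd1b* were at 0 UMIs. With clusters named by marker score alone, 480 and 410 cells were called pericyte and no subset led by *Dlx6os1* or *Msx2* remained among SMCs. A level in CPM cannot tell fewer cells expressing a gene from less RNA in each.

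By an edgeR quasi-likelihood F test over the 6 subsets, 9 of 10 factors passed at an adjusted p under 0.05, where 46.6% of 11284 genes did. Without the low-UMI subsets 9 of 10 again passed, where 29.4% did. The exception was *Srf* both times (adjusted p = 0.147 and 0.285 by edgeR), with 13.9 to 18.3 CPM in the 4 deeper subsets. Without the *Dlx6os1*/*Msx2* subset 8 of 10 passed, where 41.3% did, since *Tead1* no longer passed (adjusted p = 0.214 by edgeR). The F statistic was largest for *Prrx1* (62.3, adjusted p = 1.56e-12 by edgeR), then *Foxs1* (46.2, adjusted p = 3.89e-11), *Tcf4* (40.0, adjusted p = 1.80e-10) and *Klf4* (26.0, adjusted p = 1.53e-08). *Myocd* was lower in this order (12.5, adjusted p = 1.35e-05 by edgeR). Without the *Dlx6os1*/*Msx2* subset the F statistic was 5.80 for *Prrx1* (adjusted p = 0.00899 by edgeR), 14.99 for *Foxs1*, 14.8 for *Tcf4* and 28.3 for *Klf4*.

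*Prrx1* and *Tcf4*, which were most abundant in fibroblasts, were highest among the deeper subsets in the *Dlx6os1*/*Msx2* subset, where pericyte and fibroblast markers were raised and SMC markers lowered. The part of such markers in these differences, and in those of *Foxs1*, *Tbx18* and *Tead1*, was not tested. *Prrx1* stood there at 216 and 208 CPM, against 62.5 and 69.3 CPM in the *Hand2* subset, 74.6 and 74.6 CPM in the *Hoxa7* subset and 106 and 105 CPM in the *Notch3*/*Pln* subset. *Tcf4* stood at 188 and 187 CPM, against 101 and 109, 67.6 and 53.7, and 87.6 and 77.6 CPM in the same order. Neither gene overlapped between that subset and the others. The log2 difference of *Prrx1* between the *Hand2* and the *Dlx6os1*/*Msx2* subset was −1.47 ± 0.10 (adjusted p = 2.76e-12), and between the *Dlx6os1*/*Msx2* and the *Hoxa7* subset it was 1.32 ± 0.10 (adjusted p = 2.25e-11), by edgeR's quasi-likelihood test. For *Tcf4* the latter difference was 1.44 ± 0.11 (adjusted p = 3.98e-11 by the edgeR test).

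*Foxs1*, *Tbx18* and *Tead1* followed the reverse pattern, lowest or nearly so in the *Dlx6os1*/*Msx2* subset. *Foxs1* was at 14.9 and 14.5 CPM there, 33.5 and 32.7 CPM in the *Hand2* subset, 58.5 and 64.4 CPM in the *Hoxa7* subset and 94.9 and 66.2 CPM in the *Notch3*/*Pln* subset, an order without overlap. Its last step did not pass, with −0.41 for *Hoxa7* minus *Notch3*/*Pln* (adjusted p = 0.263 by edgeR). The step from *Hand2* to *Hoxa7*, −0.85 for *Hand2* minus *Hoxa7*, was under 2-fold. The difference between the *Dlx6os1*/*Msx2* and the *Hoxa7* subset was −2.24 ± 0.17 for *Foxs1* (adjusted p = 8.65e-12) and −1.09 ± 0.18 for *Tbx18* (adjusted p = 3.12e-05) by edgeR's quasi-likelihood test. *Tbx18* levels were 27.8 and 22.9 CPM in the *Dlx6os1*/*Msx2* subset against 50.7 and 44.8 CPM in the *Hoxa7* subset. In the *Hand2* subset they were 37.2 and 26.4 CPM and in the *Notch3*/*Pln* subset 18.3 and 38.8 CPM, which overlapped those of the *Dlx6os1*/*Msx2* subset and were not called against it. *Tead1* was at 34.7 and 36.1 CPM in the *Dlx6os1*/*Msx2* subset and 73.0 and 57.0 CPM in the *Notch3*/*Pln* subset, a difference of −1.07 ± 0.25 (adjusted p = 0.00206 by the edgeR test).

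*Klf4*, low in SMCs as a whole, was highest in the *Notch3*/*Pln* subset. Its levels were 184 and 119 CPM there, 72.1 and 66.1 CPM in the *Dlx6os1*/*Msx2* subset, 45.0 and 44.1 CPM in the *Hand2* subset and 43.6 and 30.9 CPM in the *Hoxa7* subset. The *Notch3*/*Pln* subset exceeded the other 3 without overlap, with log2 differences coded as the other subset minus it of −1.74 (*Hand2*), −1.33 (*Dlx6os1*/*Msx2*) and −2.03 (*Hoxa7*), the weakest at an adjusted p of 4.81e-06 by edgeR's quasi-likelihood test. Summed immediate early genes were 4477 and 2236 CPM in the *Notch3*/*Pln* subset, 4178 and 3027 CPM in the *Hand2* subset, 2424 and 2320 CPM in the *Dlx6os1*/*Msx2* subset and 2341 and 2313 CPM in the *Hoxa7* subset. Their part in the *Klf4* difference was not tested.

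No pair of deeper subsets passed the 2-fold threshold for *Myocd*, *Srf*, *Mef2c* or *Gata6*, although the F tests of *Myocd*, *Mef2c* and *Gata6* passed. *Myocd* was at 85.6 and 89.7 CPM in the *Hand2* subset, 62.4 and 72.6 CPM in the *Hoxa7* subset, 58.9 and 61.6 CPM in the *Dlx6os1*/*Msx2* subset and 49.3 and 57.0 CPM in the *Notch3*/*Pln* subset. Among these 4 the *Hand2* subset was highest in both aortas, yet its difference from the *Dlx6os1*/*Msx2* subset was 0.76 ± 0.12 (adjusted p = 7.61e-06 by edgeR), under 2-fold. *Mef2c* was at 497 and 374 CPM in the *Notch3*/*Pln* subset and 262 to 289.6 CPM in the other 3. *Gata6* was at 168 and 151 CPM in the *Dlx6os1*/*Msx2* subset, 126 and 118 CPM in the *Hand2* subset, 116 and 115 CPM in the *Hoxa7* subset and 85.8 and 93.6 CPM in the *Notch3*/*Pln* subset.

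Across the 6 pairs of the 4 deeper subsets the share of all genes called was 9.83% (*Hand2* and *Dlx6os1*/*Msx2*), 1.45% (*Hand2* and *Hoxa7*), 5.05% (*Hand2* and *Notch3*/*Pln*), 10.4% (*Dlx6os1*/*Msx2* and *Hoxa7*), 11.1% (*Dlx6os1*/*Msx2* and *Notch3*/*Pln*) and 4.86% (*Hoxa7* and *Notch3*/*Pln*). In the same order, the factors called were *Prrx1* and *Foxs1*, none, *Klf4* and *Foxs1*, then *Foxs1*, *Prrx1*, *Tbx18* and *Tcf4*, then *Klf4*, *Tead1*, *Foxs1* and *Tcf4*, and *Klf4* alone. In the low-UMI subset of 749 cells *Myocd* stood at 30.2 and 45.7 CPM and *Gata6* at 39.3 and 45.7 CPM, below every deeper subset, while *Srf* was at 18.1 and 18.0 CPM. These cells had a median of 6.99% mitochondrial UMIs, against 4.40% to 5.23% in the deeper subsets, and the part of RNA quality in their lower levels was not tested. The low-UMI subset of 138 cells, led by *Adam33*, *Malat1* and *Neat1* among others and with a median of 3.04% mitochondrial UMIs, went the other way. It held *Myocd* at 134 and 109 CPM and *Gata6* at 177 and 167 CPM, the highest mean of the 6 subsets for both genes, though for *Gata6* its values overlapped those of the *Dlx6os1*/*Msx2* subset.

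**Figure D4:**
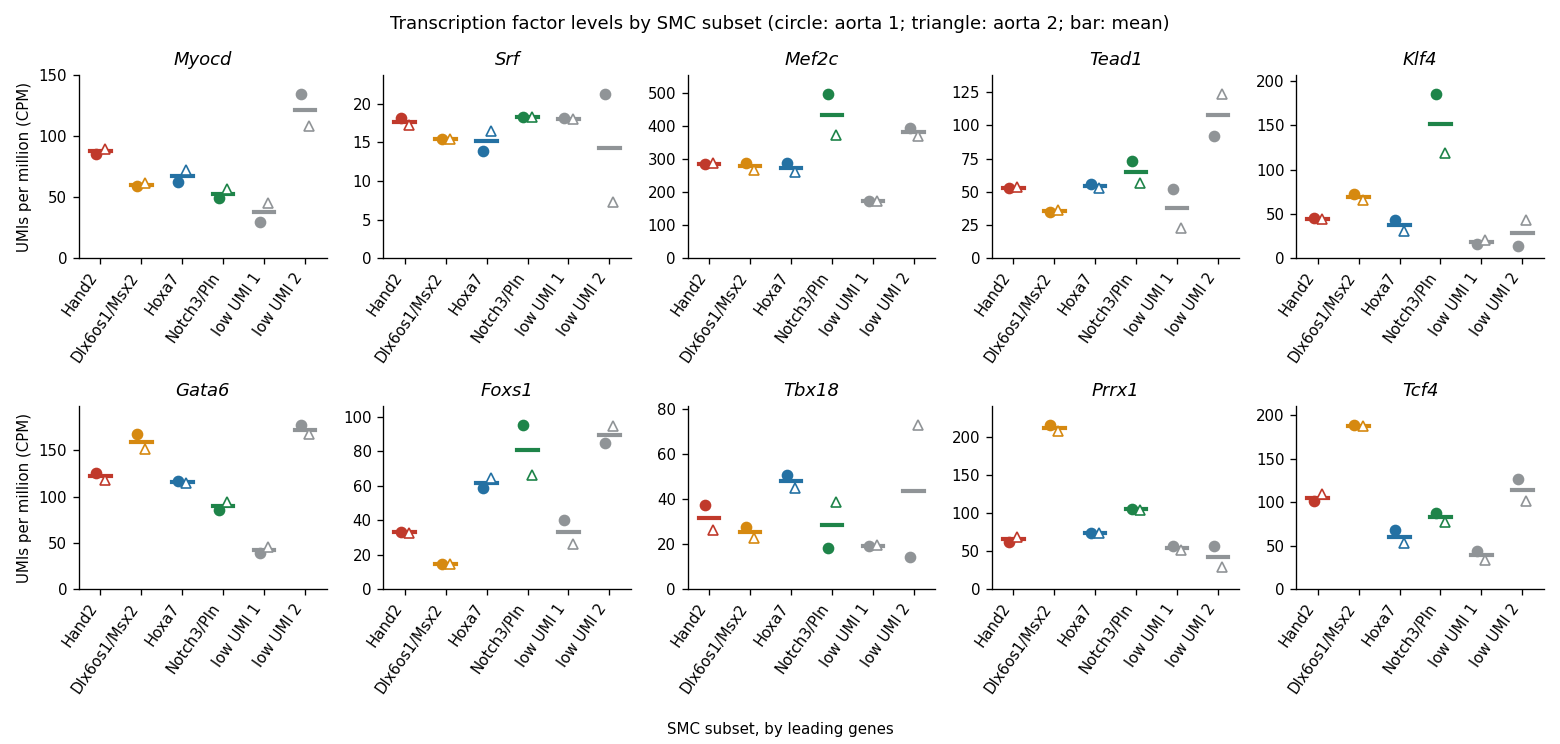
Level of each factor in the 6 SMC subsets, in CPM on a linear axis from 0 for each gene, with a circle for aorta 1, a triangle for aorta 2 and a bar at their mean. *Prrx1* reaches 216 and 208 CPM in the *Dlx6os1*/*Msx2* subset and lies between 52.3 and 106 CPM in the other subsets except the low-UMI subset of 138 cells (low UMI 2), where it was 56.5 and 29.0 CPM, while *Srf* differs little between the deeper subsets.

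The genes on which SRF and myocardin are known to act were measured alongside. Of 18 contractile genes that did not serve as markers, 18 were called higher in SMCs than in fibroblasts (10.5% of all genes), with a median log2 difference of 3.42 beside −0.01 over all genes. Against endothelial cells 17 were higher (14.4%), with a median of 4.62 beside 0.02. The widest differences from fibroblasts were those of the potassium channel subunit *Kcnmb1* (4.83), the tropomyosin *Tpm2* (3.91), the actin-binding *Synpo2* (3.90), the smooth muscle actin *Actg2* (3.85) and the phosphatase inhibitor *Ppp1r14a* (3.71). From endothelial cells they were those of desmin (*Des*, 6.55), *Kcnmb1* (6.49), the integrin *Itga8* (6.25), *Actg2* (6.14) and *Tpm2* (6.00). In the other comparisons 17 of 18 were higher than in mesothelial cells (13.7% of all genes), 18 than in myeloid cells (23.3%) and 18 than in lymphocytes (27%). Across the subsets 18 of 18 passed the F test, where 46.6% of all genes did.

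The 16 immediate early and heat shock genes, a list of which only a part is known as SRF targets, were mixed. Against fibroblasts 6 of 16 were higher in SMCs (10.5% of all genes) and 3 lower (14.8%), with a median of 0.73. The stress factor *Atf3* (4.47), the heat shock genes *Hspa1a* (3.69) and *Hspa1b* (2.97), *Fos* (1.89) and the antiproliferative *Btg2* (1.87) were the most raised, while the cytokine signal inhibitor *Socs3* (−1.77), *Junb* (−1.59) and *Egr1* (−1.29) were lower. Against endothelial cells 7 were higher (14.4%) and 2 lower (15.5%), with a median of 0.94. Across the subsets 13 of 16 passed the F test, where 46.6% of all genes did.

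Among 38 partners and paralogs of the factors, 37 were tested, and 10 were higher in SMCs than in fibroblasts (10.5% of all genes) and 7 lower (14.8%), with a median of 0.22. The LIM proteins *Csrp1* (3.33) and *Csrp2* (2.92), which bridge SRF and GATA factors, rose, as did the deacetylase *Hdac9* (2.48) and the bHLH inhibitors *Id4* (1.98) and *Id1* (1.66). Lower were *Tcf21* (−5.43), a bHLH factor of fibroblast lineages, *Tead4* (−3.78), *Klf5* (−3.53), the TEAD cofactor *Vgll3* (−1.90) and the deacetylase *Hdac7* (−1.77). The *Tead4* value had the widest SE of these, 1.28 (adjusted p = 0.0233 by edgeR). Against endothelial cells 13 were higher (14.4% of all genes) and 7 lower (15.5%), with a median of 0.30.

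In that comparison the *Prrx1* paralog *Prrx2* (5.97), *Tead3* (4.79), *Csrp2* (4.26), *Id4* (4.01) and the Notch target *Heyl* (3.37) were the most raised. *Tead4* (−8.27), the flow-responsive *Klf2* (−3.88), *Mrtfb* (−2.73), the ternary complex factor *Elk3* (−2.66) and *Tead2* (−2.21) were lowest. *Mrtfa* and *Mrtfb*, the coactivators of SRF that respond to actin, differed from fibroblasts by −0.50 (adjusted p = 0.022) and 0.03 (adjusted p = 0.854) in edgeR's quasi-likelihood test, both under 2-fold. Across the subsets 23 of 34 partners passed the F test, where 46.6% of all genes did, led by *Prrx2* (F = 167), *Csrp2* (95.7) and *Csrp1* (70.0).

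The genes whose pattern was most like each factor were sought over the 12 sums of 6 cell types and 2 aortas, by Pearson's r of log2(CPM + 1) across 11814 genes. The sums share their libraries and have unequal depth, and r describes likeness and nothing of shared function. *Myocd* was closest to *Adcy5* (0.988), *E030013I19Rik* (0.985) and *Kctd16* (0.985), and had an r of 0.876 with *Srf*. *Srf* was closest to *Art3* (0.941), with no gene over 0.95. *Prrx1* was closest to the fibroblast genes *Islr* (0.991) and *Col1a1* (0.980), *Klf4* to *Tmem140* (0.994), and *Gata6* to *Ston1* (0.984). *Mef2c* was closest to *Tnfrsf11a* (0.962), *Tead1* to *Pkia* (0.991), *Foxs1* to *2310039H08Rik* (0.975), *Tbx18* to *Bicd1* (0.994) and *Tcf4* to *Cryzl2* (0.952).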

How the data were processed

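Single-cell libraries were made from 2 aortas, and per the labels and file headers the authors processed them with Cell Ranger (4.0.0 in the matrix header) against mm10 and used Seurat 4.0. The deposited values are raw UMI counts per gene and cell, and strand use in the counting is not given in the sources used here. Cells with at least 200 genes, 1000 to 25000 UMIs and at most 10% mitochondrial UMIs were kept; the study states 5000 UMIs as a minimum for sorted SMCs, which was tried as an alternative and left 3744 and 2487 cells. Doublets were removed with Scrublet in scanpy 1.11.5 (Python 3.11.15), and cells were clustered by Leiden (leidenalg 0.10.2) on 30 components, with the factors and listed genes left out. Clusters were named from markers in 11 classes. A cluster with a larger share of SMC than of pericyte markers detected was not called pericyte, a rule added after the cluster tables were seen; its first form, the marker score alone, was kept as an alternative.

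Each cell type's UMIs were added up within an aorta, and these sums were tested with edgeR 4.0.16 (R 4.3.3), with DESeq2 1.42.0 as an alternative. Erythroid (28 and 14 cells) and unnamed cells (47 and 38) were not fitted. The 10 factors and the gene lists were chosen with earlier results of these data known. The text names all 10 factors, from each list up to 5 genes per direction with the largest called change against fibroblasts and endothelial cells and up to 3 by F, and up to 3 most alike genes; cluster-leading genes, cluster values, *Mrtfa* and *Mrtfb* were named after their values were seen. Cell types of 1 aorta share the animal, so the aorta number pairs the sums. Aortas are separate animals per the labels. The matrices carry 38 repeated symbols, none of them a factor. The tests were checked on simulated counts with known changes.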

Additional observations from a re-analysis of the deposited data

Results flagged for a closer look

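The cells left out of the analysis, 2408 of aorta 1 and 1649 of aorta 2, held a signal of the 10 factors outside the comparisons reported, 4802 and 2480 UMIs in all. They include the 205 and 84 doublets, which entered the fits with doublets kept. For *Myocd* they held 163 and 98 UMIs, or 27.7 and 29.9 CPM, beside 29.6 and 33.1 CPM in the analysed cells. For *Klf4* they held 723 and 359 UMIs, or 123 and 109 CPM, beside 167 and 191 CPM.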

How the results depend on the processing

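Over the alternatives, 484 of 500 fold changes with a test kept direction and call. When 1 aorta was left out, 80 of 100 fold changes stayed within the SD of their 2 such values and 20 moved further. Of 80 F tests among subsets 79 kept their call, and all 50 counts of called genes stayed within 1.5 times the count reported. The cause of the other changes was not tested. None of the values that changed sign was called: *Foxs1* against fibroblasts became 0.077 with clusters named by marker score alone, *Gata6* against fibroblasts −0.033 with doublets kept, −0.0070 with no gene filter, −0.0099 with DESeq2 and −0.10 with naming by score, and *Tead1* against endothelial cells −0.00033 at 5000 UMIs per cell. At that minimum *Srf* against mesothelial cells (0.89) and lymphocytes (0.99) lost its call, and *Mef2c* against lymphocytes (1.22) gained one. *Srf* against fibroblasts was called at 1.02 with listed genes allowed in clustering and 1.01 with naming by score, and *Tcf4* against endothelial cells at −1.11 with the latter. The replicate block by aorta raised *Srf* against fibroblasts to 1.01 and changed no other call of a factor. Values moved by over 1.5 times in 16 comparisons with doublets kept, all lower, as in *Myocd* over myeloid cells (3.84), mesothelial cells (3.66) and lymphocytes (4.01), and in 8 at 5000 UMIs per cell, again all lower, as in *Myocd* (3.88), *Prrx1* (2.49) and *Tead1* (3.103) over lymphocytes. Without aorta 1 and without aorta 2, *Myocd* over lymphocytes was 7.02 and 4.65, and *Tbx18* over lymphocytes was 5.81 without aorta 1. DESeq2 scaling moved the median of all genes by −0.13 against lymphocytes. Low levels in types with under 10 UMIs of a factor are limited by depth. Naming by score and the removal of low-UMI cells or of the *Dlx6os1*/*Msx2* subset were chosen after seeing the data.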
